A study of Mus musculus with 6 samples.

Results

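The genes described here encode the activin subunits Inhba and Inhbb, the follistatins Fst and Fstl3, their relative Fstl1, and the activin receptors Acvr1b, Acvr2a and Acvr2b. They were chosen by name as ligands, binding proteins and receptors of 1 signalling system. All 8 were measured, out of 22180 named genes, each by 1 probe set assigned to that gene alone. The samples were dermal fibroblasts of ventral skin, sorted from female C57BL/6 mice aged 8 to 12 weeks, in 2 groups of 3 arrays. WT samples came from wild-type littermates, and their skin was labelled as telogen, the resting phase of the hair cycle. KrP samples came from the nipple-like skin of K14-PTHrP mice, whose transgene puts PTHrP (parathyroid hormone-related protein) under the keratin 14 promoter, known for its activity in basal keratinocytes. No hair cycle phase was given for KrP skin. Cells were pooled before the sort for CD140 and against CD31, CD45, CD117 and CD49f. The labels name 3 mice without saying whether they served each sample or a whole genotype, so the p-values reflect the spread of these arrays alone, and that spread may be technical.

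Activins are secreted dimers of inhibin beta subunits that belong to the TGF-beta superfamily. They bind a type II receptor kinase, which activates a type I receptor kinase, and the signal reaches the nucleus through SMAD2 and SMAD3. Follistatin and follistatin-like 3 wrap around the dimer and keep it from its receptors. In skin, activin signalling is best known from wound repair and from hair follicle and mammary development.

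Of the 8 genes, 1 rose in KrP fibroblasts. Inhbb, which encodes the beta B subunit of activin B, was 2.68-fold higher. The type I receptor Acvr1b and the inhibitor Fstl3 were 1.56-fold and 1.42-fold higher, with no overlap between groups, but missed the threshold over all genes without a block and passed it when the replicate number was taken as a block. Inhba, Fst and Acvr2b differed by less than the spread between samples, and Fstl1 and Acvr2a were slightly lower without passing. A call needed a limma p under 0.05 after Benjamini-Hochberg adjustment over all genes. That threshold called 2.18% of all genes, 1.15% of them higher and 1.03% lower in KrP samples. With the block it called 8.35% of all genes, 5.33% higher and 3.02% lower, and 3 of the 8, all higher. The block was read from these data and not from a label, so its p-values may be too small. At an unadjusted p under 0.05 limma found 16.0% of all genes, 9.44% higher and 6.56% lower, and 4 of the 8. The median difference over the 8 genes was 0.11 on the log2 scale, against 0.007 over all genes.

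Fibroblast markers lay well above background. Pdgfra and Pdgfrb, which encode CD140a and CD140b, had mean log2 values of 13.23 and 12.33 in WT and 13.47 and 12.76 in KrP samples. Levels of different probe sets cannot be read as amounts, so each marker was set only against a guide to background. Olfactory receptor genes (1105 in all) gave that guide, and their 95th percentile was 6.28. Of the markers sorted against, Ptprc (CD45) lay at 4.85 in WT and 4.65 in KrP samples, Kit (CD117) at 6.23 and 6.18, Pecam1 (CD31) at 6.73 and 6.68 and Itga6 (CD49f) at 7.41 and 7.55. By mean over the 6 arrays, 4 of 6 measured leukocyte markers, 2 of 6 endothelial markers and 3 of 8 keratinocyte markers lay at or under the guide. Other markers of cell types that the sort should remove lay above it. Among them were the leukocyte markers Cd14 (9.35 and 9.90) and Cd68 (9.48 and 9.34), the endothelial markers Kdr (8.71 and 7.30) and Cdh5 (7.79 and 8.33) and the keratinocyte marker Krt14 (6.96 and 6.60). Whether these signals came from other cells or from fibroblasts was not tested. Array medians ran from 6.34 to 6.43, and arrays correlated by 0.985 to 0.995 within groups and by 0.972 to 0.989 across groups. The gene of PTHrP was not analysed here, so the genotype labels had no direct check, and the PTHrP receptor Pth1r differed by 0.09 (log2; limma adjusted p = 0.852). The descriptions of KrP 2 and KrP 3 name another keratin than K14, whereas their genotype names K14, which was used.

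The promoters of the subunit genes and of Fstl3 are shown because Inhbb rose, Inhba did not pass the test and Fstl3 passed with the block but not without it. Each is the 250 bases before the gene's start in RefSeq on GRCm38.p6, written 5′ to 3′ on the gene's own strand. They lie at chr1:119422249-119422498 on the minus strand for Inhbb, at chr13:16011601-16011850 on the plus strand for Inhba and at chr10:79777024-79777273 on the plus strand for Fstl3. Capitals mark the letters CAGAC (SMAD-binding element) and GGGCGG (GC box), read on both strands.
Inhbb: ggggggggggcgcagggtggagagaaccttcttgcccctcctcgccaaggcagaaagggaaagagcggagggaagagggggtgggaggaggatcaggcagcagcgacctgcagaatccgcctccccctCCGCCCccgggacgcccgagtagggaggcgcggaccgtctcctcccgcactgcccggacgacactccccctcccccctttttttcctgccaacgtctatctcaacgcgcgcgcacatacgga
Inhba: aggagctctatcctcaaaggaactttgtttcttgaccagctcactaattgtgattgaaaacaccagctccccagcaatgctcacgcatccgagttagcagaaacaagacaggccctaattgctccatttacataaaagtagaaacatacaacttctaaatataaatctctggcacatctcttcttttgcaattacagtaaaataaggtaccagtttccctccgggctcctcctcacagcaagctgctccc
Fstl3: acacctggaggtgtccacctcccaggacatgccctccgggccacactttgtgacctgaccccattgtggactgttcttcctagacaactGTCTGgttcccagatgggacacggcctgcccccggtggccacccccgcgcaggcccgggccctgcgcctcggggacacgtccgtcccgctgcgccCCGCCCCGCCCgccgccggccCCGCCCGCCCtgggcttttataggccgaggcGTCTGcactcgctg
The Inhbb window was 68.0% G or C with 21 CG dinucleotides, the Fstl3 window 71.2% with 22, and the Inhba window 43.2% with 3. The median over all 32851 windows of this length was 52.4%. Inhbb held 1 GC box and no CAGAC, Fstl3 held 4 GC boxes, of which neighbours share letters, and 2 CAGAC, and Inhba held neither. Of all windows, 32.7% held GGGCGG and 42.2% held CAGAC. The cAMP response element TGACGTCA (in 1.55% of all windows), its core TGACG (17.8%), which the full element contains, and the AP-1 letters TGACTCA or TGAGTCA (4.46%) were also searched on both strands and were found in none of the 3. Promoters were matched for 7 of the 8 genes. Among those not printed, the window of Acvr1b, which also passed only with the block, was 78.8% G or C with 4 GC boxes. The windows of Acvr2a (82.0%, 2 GC boxes), Acvr2b (72.8%, 3) and Fstl1 (68.0%, 2) were also rich in G or C. These last genes did not pass with or without the block, so the windows set no rising gene apart. A match describes letters in a window and is not evidence of binding.

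Among the ligand genes, Inhbb gave the clearest difference. Its log2 values were 8.34, 7.91 and 8.32 in WT 1 to 3 and 9.91, 9.34 and 9.59 in KrP 1 to 3. Each KrP array lay at least 1.00 above each WT array, and within each group the sample numbered 2 was the lowest. The group means were 8.19 ± 0.24 for WT and 9.61 ± 0.29 for KrP arrays (SD, n = 3 each). The difference was 1.42 ± 0.19 (log2, SE), with a 95% confidence interval from 0.995 to 1.85 and a limma adjusted p of 0.0103, or 0.00167 with the replicate block. The difference stayed between 1.28 and 1.56 when each sample was left out in turn, but Inhbb lost its call when WT 3 (limma adjusted p = 0.0530) or KrP 3 (0.0740) was omitted. In such sorted populations more cells with the transcript and more transcript per cell cannot be told apart.

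Inhba, which encodes the beta A subunit of activin A, varied widely and alike in both groups. Its log2 values were 10.24, 11.24 and 10.58 in WT 1 to 3 and 10.03, 11.18 and 11.02 in KrP 1 to 3. The groups overlapped almost wholly, and the sample numbered 1 was the lowest and the sample numbered 2 the highest in both. The means were 10.69 ± 0.51 and 10.74 ± 0.62 (SD, n = 3 each), which gave a difference of 0.06 with a 95% confidence interval from -0.72 to 0.83 (limma adjusted p = 0.961). The interval covers changes in both directions, and it narrowed to -0.26 to 0.38 with the replicate block (adjusted p = 0.864).

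The balance of the subunit genes was compared within arrays, where the log2 value of Inhba minus that of Inhbb cancels what an array shares. The change of this value between groups was compared, not its level. It was 1.90, 3.33 and 2.26 in WT 1 to 3 and 0.12, 1.84 and 1.43 in KrP 1 to 3. All KrP values lay under all WT values, by a narrow margin between KrP 2 and WT 1, and the mean shift was -1.37. The exact two-sided permutation p was 0.1, the smallest that 3 against 3 arrays allow, and 0.187 after Benjamini-Hochberg adjustment over the 28 pairs of the 8 genes. Relative to Fst, Inhbb shifted by 1.39, from -4.32, -4.93 and -4.48 to -2.61, -3.68 and -3.28, again without overlap (exact permutation p = 0.1). Relative to Fstl3, which was itself higher in KrP samples, Inhbb shifted by 0.92, also without overlap. Each shift with Inhbb includes its own rise and is no separate result. Of the 28 pairs, 15 had groups that did not overlap, and the smallest adjusted permutation p was 0.187.

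**Figure D1:**
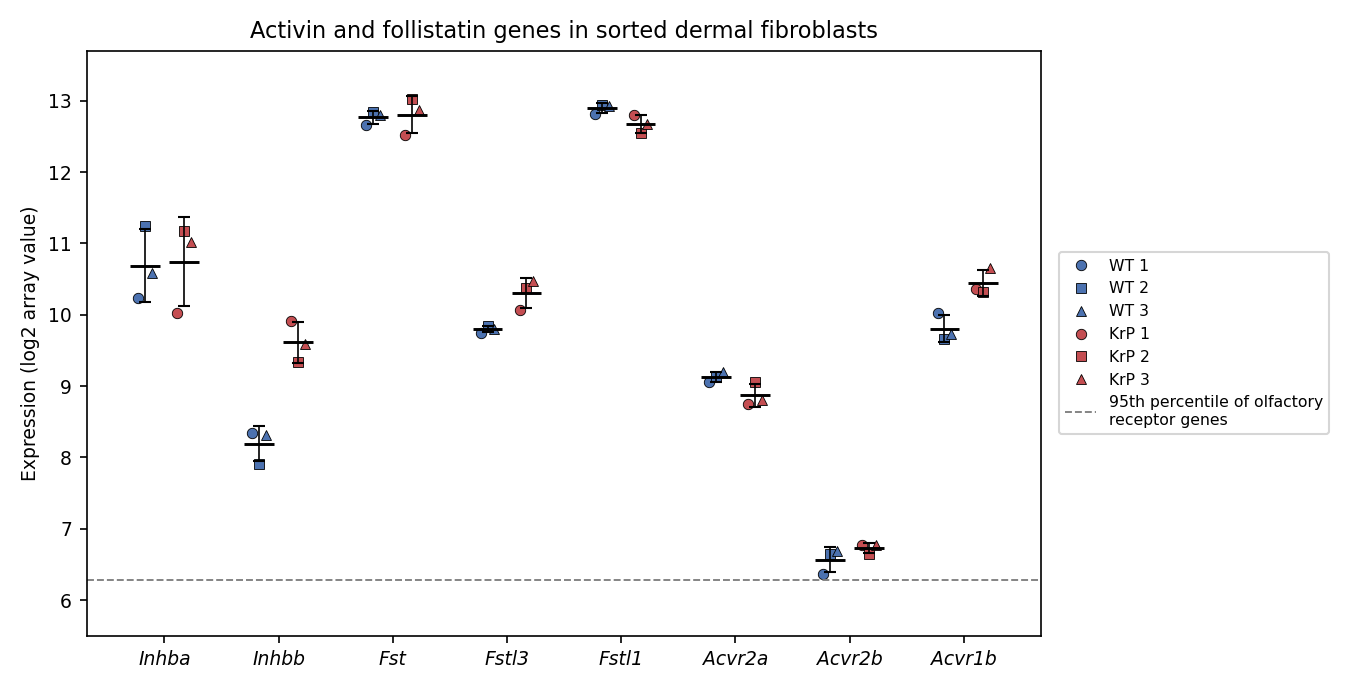
Log2 array values (y axis) of the 8 genes (x axis) in each sample, with circles, squares and triangles for replicates 1, 2 and 3, blue for WT and red for KrP. Bars are group means and whiskers are SD (n = 3 each). The KrP points of Inhbb, Fstl3 and Acvr1b all lie above the WT points, those of Fstl1 all lie below, and those of the other 4 genes overlap or touch. The dashed line at 6.28 is the background guide from olfactory receptor genes.

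The inhibitor genes did not move together. Fst, the gene of follistatin, had log2 values of 12.66, 12.84 and 12.80 in WT 1 to 3 and 12.52, 13.02 and 12.87 in KrP 1 to 3. KrP 1 was the lowest and KrP 2 the highest of the 6 arrays, so that the WT values fell inside the KrP range. The means were 12.77 ± 0.10 and 12.80 ± 0.26 (SD, n = 3 each), and the difference of 0.04 had a 95% confidence interval from -0.25 to 0.33 (limma adjusted p = 0.929).

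Fstl3, a smaller follistatin-like inhibitor of activins and myostatin, had values of 9.75, 9.84 and 9.80 in WT 1 to 3 and 10.06, 10.38 and 10.47 in KrP 1 to 3. WT samples lay within 0.09 of each other, and all KrP samples lay above them. The difference was 0.51 ± 0.13 (log2, SE; 95% confidence interval 0.20 to 0.81), with a limma adjusted p of 0.107, or 0.0340 with the replicate block. When each sample was left out in turn, Fstl3 passed only without KrP 1 (limma adjusted p = 0.0447). The highest adjusted p was 0.405, without KrP 3. Within arrays, Fst minus Fstl3 was 2.91, 3.00 and 3.00 in WT 1 to 3 and 2.46, 2.64 and 2.40 in KrP 1 to 3. The shift was -0.47 without overlap (exact two-sided permutation p = 0.1, or 0.187 adjusted over the 28 pairs). It includes the difference of Fstl3 itself and is no separate result.

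Fstl1 encodes a secreted glycoprotein that shares the follistatin domain but is not known as a strong activin inhibitor. It had values of 12.82, 12.94 and 12.93 in WT 1 to 3 and 12.80, 12.55 and 12.68 in KrP 1 to 3. The KrP values lay below the WT values by as little as 0.02, between KrP 1 and WT 1. The difference was -0.22 ± 0.08 (log2, SE; 95% confidence interval -0.41 to -0.03), and the limma adjusted p was 0.239, or 0.171 with the block. Fst and Fstl1 lay near the top of the array's range, which ended at 14.32, where log2 differences can be compressed.

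The receptor genes did not share a direction. Acvr1b encodes ALK4, the type I receptor of activins. Its log2 values were 10.02, 9.66 and 9.73 in WT 1 to 3 and 10.36, 10.32 and 10.66 in KrP 1 to 3. All KrP values lay above all WT values, and the smallest gap was between KrP 2 and WT 1. The difference was 0.64 ± 0.15 (log2, SE; 95% confidence interval 0.31 to 0.98). The limma adjusted p was 0.0718, or 0.0300 with the replicate block. When each sample was left out in turn, Acvr1b passed only without KrP 2 (0.0488). The highest adjusted p was 0.315, without KrP 3.

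Acvr2a encodes a type II receptor that binds the activin dimer directly. Its values were 9.05, 9.12 and 9.19 in WT 1 to 3 and 8.75, 9.05 and 8.80 in KrP 1 to 3. KrP 2 matched WT 1, and the other KrP samples lay below the WT range. The difference of -0.25 had a 95% confidence interval from -0.55 to 0.04 (limma adjusted p = 0.387). Acvr2b, which encodes the second type II receptor, was the closest of the 8 to background, with values of 6.37, 6.64 and 6.69 in WT 1 to 3 and 6.77, 6.65 and 6.77 in KrP 1 to 3. The groups overlapped, and the difference was 0.16 (95% confidence interval -0.12 to 0.44, limma adjusted p = 0.579). Near background log2 differences can be compressed, which was not tested here. Within arrays, Acvr2a minus Acvr1b was -0.97, -0.54 and -0.54 in WT 1 to 3 and -1.61, -1.27 and -1.86 in KrP 1 to 3. The shift was -0.90 without overlap (exact two-sided permutation p = 0.1, or 0.187 adjusted over the 28 pairs). It includes the differences of both genes given above and is no separate result.

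**Figure D2:**
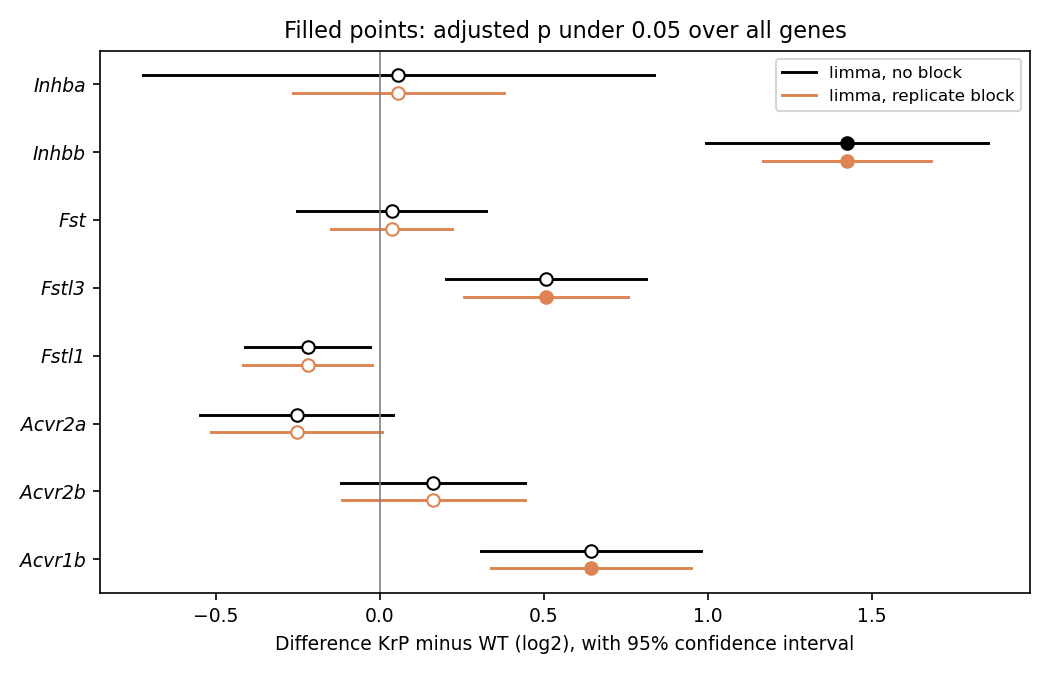
Difference between KrP and WT means (x axis, log2) for each of the 8 genes, with 95% confidence intervals from limma without a block (black) and with the replicate number as a block (orange). Filled points have an adjusted p under 0.05 over all genes: Inhbb passes in both fits, Fstl3 and Acvr1b only with the block.

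Counted by overlap, 4 of the 8 genes had groups that did not overlap, 3 higher (Inhbb, Fstl3 and Acvr1b) and 1 lower (Fstl1) in KrP samples. Over all genes this held for 20.3%, with 11.4% higher and 8.93% lower. With arrays weighted by their fit, 5 of the 8 genes passed, against 28.9% of all genes. The genes most like Inhbb across the 6 arrays, among 12303 genes above the background guide, were Slco5a1, an organic anion transporter family member (Pearson r = 0.998), Tacc1, a centrosome-associated coiled-coil protein (0.997), and Pdgfc, a ligand of CD140a (0.997). These values describe 6 samples that share the genotype difference, and 936 genes had an r over 0.9, so they set no gene apart. Slco5a1 had values of 8.84, 8.45 and 8.90 in WT and 10.28, 9.83 and 9.94 in KrP samples, which is the order of Inhbb in KrP samples but not between WT 1 and WT 3.

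**Figure D3:**
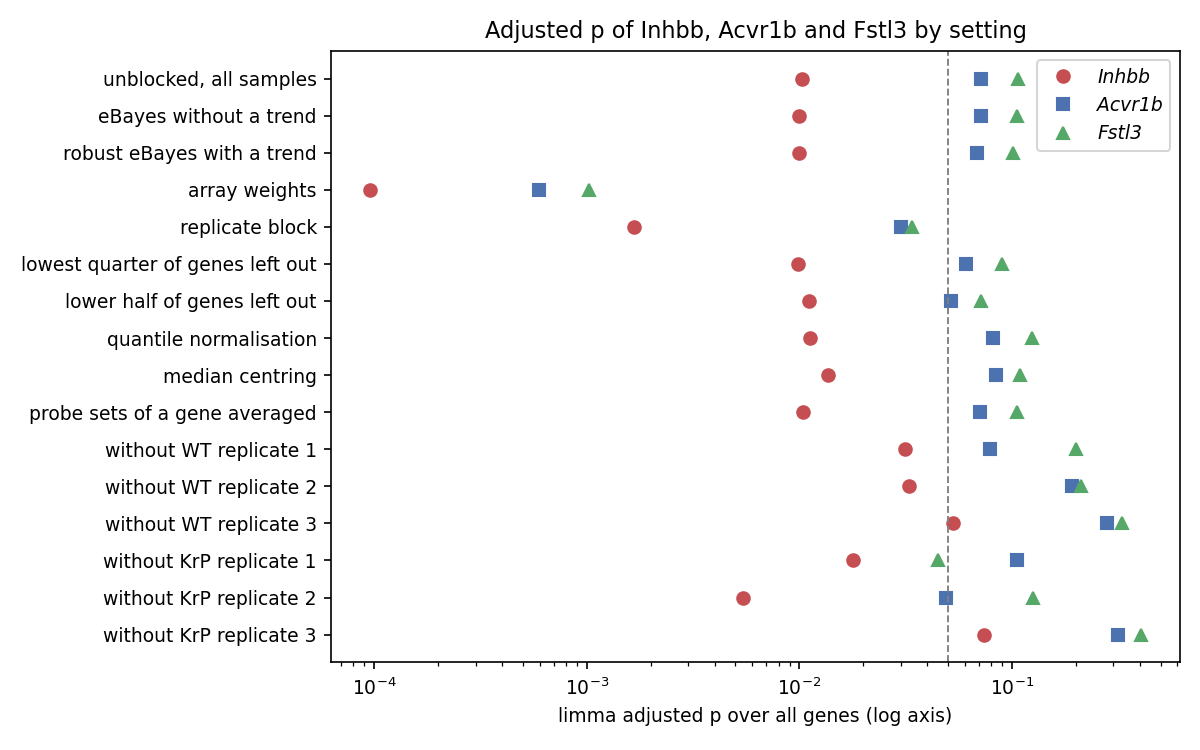
Adjusted p from limma over all genes (x axis, log scale) for Inhbb (red circles), Acvr1b (blue squares) and Fstl3 (green triangles) under each setting (y axis). The dashed line marks 0.05. Inhbb lies to its right only without WT 3 or without KrP 3, whereas Acvr1b and Fstl3 lie to its left only with the replicate block, with array weights, and without KrP 2 (Acvr1b) or KrP 1 (Fstl3).

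The rest of the pathway was described through 6 lists with 56 genes, of which 53 were measured. Of these, 1 rose and 1 fell, and 51 did not pass, where 1.15% of all genes rose and 1.03% fell. With the replicate block 3 rose and 5 fell, against 5.33% and 3.02% of all genes. The median difference over the 53 genes was 0.01 (log2). The called genes both belonged to the 6 proprotein convertases and prodomain proteases, which cut TGF-beta superfamily precursors. Pcsk6 encodes PACE4, a convertase. Its log2 values were 7.70, 7.87 and 8.26 in WT 1 to 3 and 9.01, 9.06 and 9.42 in KrP 1 to 3. Every KrP value lay above every WT value, and the gene was 2.33-fold higher (limma adjusted p = 0.0171). It did not pass when WT 1 (adjusted p = 0.0585), WT 2 (0.0606) or KrP 3 (0.110) was omitted.

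Tll1 encodes a tolloid-like protease of the BMP1 family, which can free myostatin and its relatives from their prodomains. Its log2 values were 8.91, 8.65 and 8.58 in WT 1 to 3 and 6.39, 6.88 and 6.46 in KrP 1 to 3. It was 4.40-fold lower in KrP samples, which brought it near the background guide of 6.28, and the limma adjusted p of 0.00162 stayed at or under 0.0213 when each sample was left out in turn. Furin, the general convertase of these precursors, had a difference of 0.03 (adjusted p = 0.928), and Bmp1 itself of -0.11 (0.753). Pcsk5 had a difference of 0.54 with groups that did not overlap, without passing (0.177).

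Other activin-type ligands gave 0 limma calls among 7 measured genes, of which 2 were higher at an unadjusted p under 0.05 (9.44% of all genes were). Inha, the inhibin alpha subunit that pairs with the beta subunits to form activin antagonists, had values of 7.07, 6.74 and 6.79 in WT 1 to 3 and 7.54, 7.08 and 7.19 in KrP 1 to 3, without overlap by 0.01 (difference 0.40, limma adjusted p = 0.258). Gdf11, a ligand of the same receptors, differed by 0.55 with overlapping groups (adjusted p = 0.539, or 0.0299 with the block). Inhbe differed by 0.36 and Mstn by 0.18, with means under the background guide. Of the 8 further receptors and co-receptors 0 passed limma, with or without the block, and 0 had an unadjusted p under 0.05. Tgfbr3 (betaglycan, the co-receptor of inhibin) differed by 0.39, Tgfbr2 by 0.36, Tdgf1 by -0.25 and Tgfbr1 by -0.24. The same counts of 0 held for the 10 other extracellular binders and decoys. Bambi, a receptor decoy without kinase, had a difference of -0.27 (adjusted p = 0.351), and 7 of the 10 lay at or under the background guide.

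The SMAD genes inside the cell gave 0 limma calls without the block among 12 measured. At an unadjusted p under 0.05, 1 was higher and 3 were lower, against 9.44% and 6.56% of all genes. With the block 2 fell, against 3.02% of all genes. Skil, a repressor of SMAD transcription that the pathway induces, had values of 9.27, 9.62 and 9.42 in WT 1 to 3 and 8.65, 9.07 and 8.72 in KrP 1 to 3. All KrP values lay below the WT values, with a difference of -0.62 (limma adjusted p = 0.0962, or 0.0146 with the block). Smad7, the inhibitory SMAD induced as feedback, had values of 11.27, 11.37 and 11.40 in WT 1 to 3 and 10.59, 11.12 and 10.81 in KrP 1 to 3. These groups did not overlap either, and the difference was -0.51 (adjusted p = 0.123, or 0.0340 with the block). The signal carriers Smad2 and Smad3 differed by 0.27 (adjusted p = 0.231) and -0.34 (0.519), and their partner Smad4 by -0.11 (0.605). In this list 1 gene was higher and 4 were lower without overlap, against 11.4% and 8.93% of all genes.

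Of 10 measured genes known to respond to SMAD2 and SMAD3, 0 passed limma without the block, and their median difference was -0.10. At an unadjusted p under 0.05, 1 was higher and 2 were lower, against 9.44% and 6.56% of all genes. With the block 1 rose and 2 fell, against 5.33% and 3.02% of all genes. Tgfbi, a secreted matrix protein, had values of 10.55, 11.27 and 11.40 in WT 1 to 3 and 9.09, 10.44 and 10.23 in KrP 1 to 3 (difference -1.15, limma adjusted p = 0.166, or 0.00521 with the block). Acta2, the smooth muscle actin of myofibroblasts, went the other way, from 9.64, 10.17 and 10.38 to 10.69, 11.08 and 12.36 (difference 1.31, adjusted p = 0.154, or 0.0138 with the block). In both genes the groups did not overlap, although KrP 3 alone lay over 1 above the other KrP samples in Acta2. Tagln, another contractile gene, differed by 0.84 with overlapping groups, and Ltbp2, a latent TGF-beta binding protein family member, by -0.50 (adjusted p = 0.417, or 0.0213 with the block). The responsive genes thus held values in both directions.

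**Figure D4:**
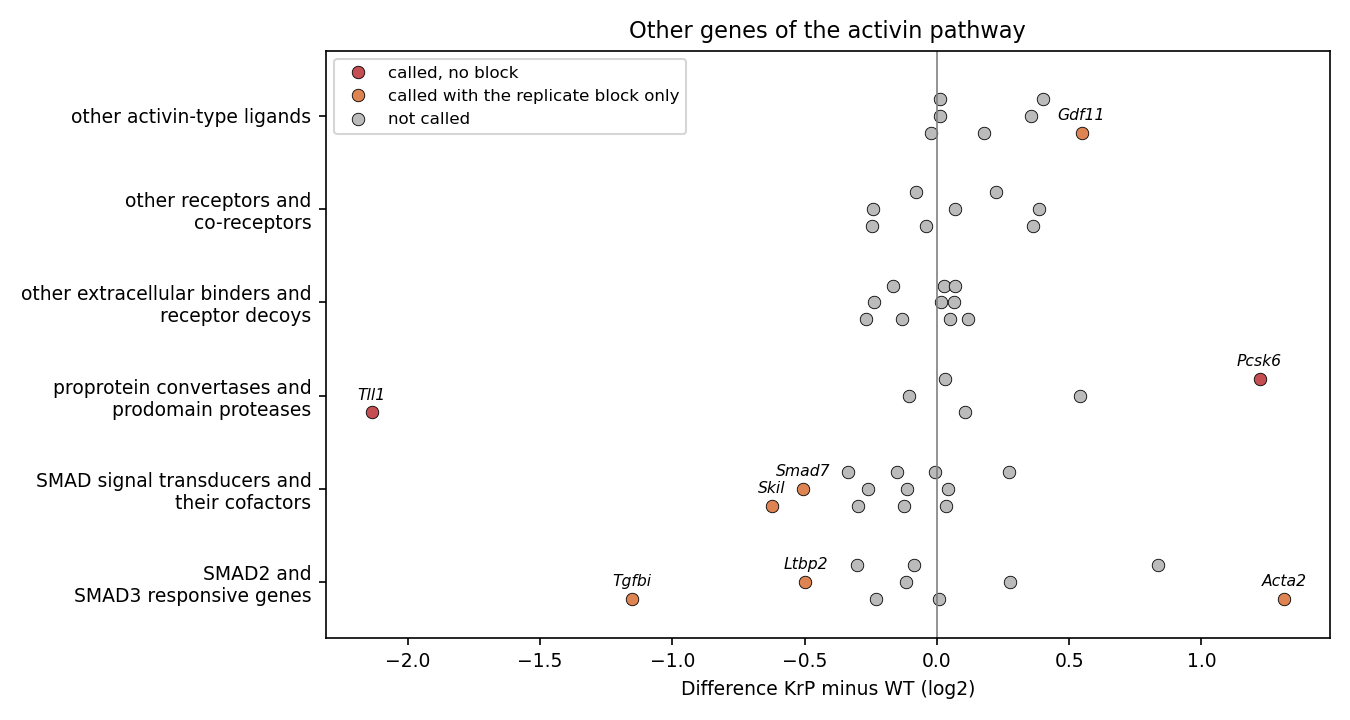
Difference between KrP and WT means (x axis, log2) of 53 other genes of the activin pathway, 1 point a gene, in 6 lists (y axis; the height of a point within a list has no meaning). Red points passed limma without a block (Pcsk6 and Tll1), orange points only with the replicate block, and grey points in neither fit.

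Markers of other cell types and of cell handling were read beside these results. Fos and Fosb, immediate early genes that dissociation induces, had mean differences of 1.35 and 1.22 with groups that did not overlap (limma adjusted p = 0.0746 and 0.10, or 0.00406 and 0.00158 with the block). The other genes of that list went in both directions. Jun differed by 0.38, Zfp36 by 0.27, Egr1 by 0.22, Ier2 by 0.09, Junb by -0.09 and Atf3 by -0.43. Of the 8 genes of that list 0 passed limma without the block. At an unadjusted p under 0.05, 3 were higher, against 9.44% of all genes, and with the block 3 rose, against 5.33%. Their summed level, the log2 of the summed unlogged values, ran from 14.24 to 14.35 in WT and from 14.43 to 14.93 in KrP samples. The part of these genes in the rise of Inhbb was not tested. Summed levels overlapped between groups for keratinocyte markers (9.56 to 10.25 in WT, 9.51 to 9.90 in KrP), endothelial markers (9.74 to 10.18, and 9.47 to 9.78), leukocyte markers (10.39 to 10.86, and 10.38 to 11.37) and markers of mast cells (6.96 to 7.31, and 7.06 to 7.11), Schwann cells (6.45 to 6.96, and 6.56 to 6.96), melanocytes (7.91 to 8.22, and 7.82 to 7.96) and adipocytes (7.81 to 8.05, and 7.77 to 7.93). Mural cell markers summed to 9.63 to 9.87 in WT and 9.27 to 9.45 in KrP samples, where 1 of 5, Cspg4, fell by 1.10 (log2; limma adjusted p = 0.0298), and of 6 endothelial markers 1, Tek, fell by 0.76 (0.0386; 2 fell with the block). Kdr had the larger difference of -1.41 without overlap (limma adjusted p = 0.0658, or 0.00158 with the block), and Cdh5 one of 0.54 (0.304, or 0.0573 with the block). No marker in the other lists passed limma without the block. Over the 56 measured markers 9 were higher and 6 lower at an unadjusted p under 0.05, against 9.44% and 6.56% of all genes. With the block 7 markers rose and 3 fell, where 5.33% of all genes rose and 3.02% fell. Among them were 3 of 9 fibroblast markers that rose. Rgs5, a defining mural gene, lay under the background guide in all samples. It was the only 1 of the 5 mural markers to do so, and Cspg4, Des, Myh11 and Mcam lay above the guide in all samples. The part of cell makeup in the differences was not tested. Fibroblast markers summed to 15.48 to 15.69 in WT and 15.68 to 15.96 in KrP samples. Of these 9 markers, 5 were higher and 0 lower at an unadjusted limma p under 0.05, against 9.44% and 6.56% of all genes. Their median difference was 0.48 (log2).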

How the data were processed

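Total RNA (100 ng per sample) was labelled with biotin and hybridised to 1 array per sample, per the labels' protocols. The authors deposited 1 log2 expression value per probe set and array. The submitters' processing notes list RMA and Partek, with neither version nor role. Genome build and probe set filter: not given in the sources used here. Arrays carry no read depth, so their number limits the precision.

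Of 34390 probe sets, 23521 had 1 gene symbol in the platform annotation, 1814 several and 9055 none. By gene ID, 23328 were named through RefSeq (GRCm38.p6), and 193 kept the annotation's name. For the 1082 genes with several probe sets, the highest mean was kept. KrP was compared with WT by limma 3.58.1 in R 4.3.3 (lmFit, eBayes with a trend; no filter or block), with Benjamini-Hochberg adjustment over 22180 genes. The fit was tested on simulated data. Exact permutation tests used scipy 1.17.1 and figures matplotlib 3.10.9 in Python 3.11.15.

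The genes, lists and tests were chosen with earlier results of these data known. Named were the 8 genes, called pathway genes and up to 4 more per list by size of difference, the 3 genes most correlated with a called member, sort markers and Pth1r. Smad2, Smad4, Ccn2 and the single markers of cell handling and other cell types were chosen after their values were seen.

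Both groups carry replicate numbers 1 to 3. Over all genes, same-numbered samples deviated from their group means with correlations of 0.414, 0.350 and 0.120, each above 0.1, so the numbers were read as pairing the samples. Samples with different numbers gave correlations from -0.385 (WT 2 with KrP 1) to 0.067 (WT 2 with KrP 3). The 0.120 of the samples numbered 3 lay close to the upper end of these, so their pairing is weakly borne out. The pairing comes from the data, not a label, and blocked p-values may be too small. Alternatives left out the trend, made the prior robust, weighted arrays, filtered out 25% or 50% of genes by mean level from below, renormalised, averaged probe sets, blocked on the replicate number or left out each sample.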

Additional observations from a re-analysis of the deposited data

How the results depend on the processing

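Values here are limma log2 differences or counts of genes at an adjusted p under 0.05. Under the replicate block 1851 genes passed (8.35% of all genes) in place of 483 (2.18%). Of the 8 activin and follistatin genes 3 passed in place of 1, and of the 53 pathway genes 8 in place of 2. The block brought Fstl3 (0.51) and Acvr1b (0.64) past the threshold, and it ended no call among the 8 genes or the pathway genes named. With array weights 6410 genes passed (28.9% of all genes), 5 of the 8 and 18 pathway genes. Then Fstl3 (0.65), Fstl1 (-0.23), Acvr2a (-0.35) and Acvr1b (0.86) passed too. That fit rests mainly on KrP 3 and WT 3, with weights of 7.91 and 2.66, while the other weights ran from 0.409 to 0.626.

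Leaving out each sample in turn gave 85 to 1116 called genes, 0 to 2 of the 8 and 1 to 4 pathway genes. Omitting WT 1, 2 or 3 left 230, 256 or 101 called genes, and omitting KrP 1, 2 or 3 left 321, 1116 or 85. Neither the fit lacking WT 3 nor that lacking KrP 3 called any of the 8, of which 3 had an unadjusted p under 0.05 in each fit. The differences ran from 1.28 to 1.56 for Inhbb, 0.42 to 0.63 for Fstl3, 0.54 to 0.75 for Acvr1b, -0.28 to -0.16 for Fstl1, -0.34 to -0.20 for Acvr2a and 0.07 to 0.23 for Acvr2b. Those of Inhba (-0.17 to 0.41) and Fst (-0.07 to 0.18) changed sign, for Inhba without WT 1 (-0.17), KrP 2 (-0.16) or KrP 3 (-0.08) and for Fst without WT 1 (-0.02) or KrP 2 (-0.072). Fits without a sample hold fewer arrays; beyond that the cause was not tested. The other alternatives (no trend, robust prior, both filters, quantile normalisation, median centring and averaged probe sets) moved none of the 8 across the threshold and turned no direction, except that Acvr2b was not tested with the lower 50% of genes left out. Precision is limited by 3 arrays a group, and Acvr2b by its low signal.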

Other observations

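Ccn2, a matricellular protein gene among those known to respond to SMAD2 and SMAD3, was chosen after its values were seen and had log2 values of 10.23, 11.69 and 11.46 in WT 1 to 3 and 8.48, 11.69 and 12.30 in KrP 1 to 3. Its spread within KrP samples (SD 2.05) exceeded that of each of the 8 activin and follistatin genes, of which Inhba had the widest (SD 0.62). KrP 1 was the lowest of the 6 arrays for Ccn2, Tgfbi, Inhba and Fst, and WT 1 was the lowest WT array for each of these genes and for Tagln (9.08, against 11.00 and 10.24).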
